A study of Mus musculus with 8 samples.

Results

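The Hox cluster genes of mouse myoblasts were examined, that is, all 39 genes named Hox with a cluster letter from a to d and a paralogue number, out of 23158 gene names in the expression tables. They were chosen by name, so no measured value entered the choice. The cells were primary myoblasts grown out of satellite cells, the stem cells of skeletal muscle, from B6/129 mice, and RNA was taken after 24 h of differentiation. The labels give female wild-type (WT) cells the alleles Pax7-CreER and Rosa26-Floxed-TdTomato, and female knockout (KO) cells these alleles together with UTX-Floxed. No allele is labelled for male WT and male KO cells, nor for the female KI and Ctrl-KI cells, and no age is given for the mice. Per the protocols, all cells were grown with 2.5 µM 4-hydroxytamoxifen, which activates the Cre recombinase, 2.5 ng/mL FGF and 20% serum, and were sorted for the red reporter. In the female WT and KO cells, for which the Cre allele is labelled, Cre is driven by Pax7. Recombination there is limited to cells that expressed this satellite cell gene. There was 1 library each of female WT, female KO, male WT and male KO cells, and 2 libraries each of Ctrl-KI and KI cells.

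Hox genes encode homeodomain transcription factors that lie in 4 clusters, Hoxa to Hoxd, and are numbered from 1 to 13 by their place in a cluster. Low numbers are expressed towards the head and high numbers towards the tail and the ends of the limbs, and many adult cells, muscle precursors and connective tissue cells among them, keep part of the pattern of the body region they came from. Silent Hox genes carry methylation of histone H3 on lysine 27, a mark laid down by Polycomb proteins and removed by UTX, the demethylase encoded by Kdm6a.

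Levels are FPKM, a read measure scaled to transcript length and library size, with a confidence interval deposited for each value. Each of the 3 tables holds 1 control and 1 mutant column, and the KI table pools the 2 libraries of a group in 1 column. No group therefore has replicate values, a comparison has no replicate check, and the deposited interval is the only error. The female table lists all 39 Hox genes apart. They fall on 31 male and 33 KI loci, of which 7 in each table merge several gene names, such as Hoxa9 with Hoxa10, and the KI table also holds short extra loci, such as those named Hoxb3 and Hoxb5. All had the status OK. A locus was counted in a comparison when it reached 1 FPKM in 1 column, which 23 female, 23 male and 22 KI Hox loci did. Read depth is unknown, since FPKM keeps no total. The interval of a Hox locus spanned a median of 163% of its value in female WT, 215% in male WT and 49.8% in the KI control, so the KI table resolves much smaller differences. Kdm6a itself stood at 20.8 (WT) and 16.9 FPKM (KO) for females, 7.87 and 2.08 for males, and 12.8 (Ctrl-KI) and 13.2 (KI). Which exons are floxed is not given, so whole-gene values cannot show the deletion. Uty, the Y-linked relative, was 8.43 and 5.85 FPKM in males and at or near 0 in females. Values in pairs below give the control column first.

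The clusters lie on mm9 chromosome 6 (Hoxa), 11 (Hoxb), 15 (Hoxc) and 2 (Hoxd). RefSeq promoter sequences of build GRCm38 were at hand for 22 of the 39 genes, with 24 start sites. The 250 bases before the start are shown for Hoxb8 and Hoxb4, which were low in KI cells, for Hoxd10, which was close to 0 in all control columns, and for Hoxa9, among the highest Hox genes in female cells. Capitals mark each CG pair, the site of DNA methylation in mammals.
Hoxb8: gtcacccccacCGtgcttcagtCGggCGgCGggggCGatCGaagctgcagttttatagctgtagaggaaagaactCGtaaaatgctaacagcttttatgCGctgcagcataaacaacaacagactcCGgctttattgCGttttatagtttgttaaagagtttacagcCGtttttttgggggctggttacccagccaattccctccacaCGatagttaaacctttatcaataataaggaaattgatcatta
Hoxb4: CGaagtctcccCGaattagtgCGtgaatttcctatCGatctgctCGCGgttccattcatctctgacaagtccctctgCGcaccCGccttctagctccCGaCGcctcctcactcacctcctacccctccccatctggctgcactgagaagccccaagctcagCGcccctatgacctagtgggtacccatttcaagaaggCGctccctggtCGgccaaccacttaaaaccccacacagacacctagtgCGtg
Hoxd10: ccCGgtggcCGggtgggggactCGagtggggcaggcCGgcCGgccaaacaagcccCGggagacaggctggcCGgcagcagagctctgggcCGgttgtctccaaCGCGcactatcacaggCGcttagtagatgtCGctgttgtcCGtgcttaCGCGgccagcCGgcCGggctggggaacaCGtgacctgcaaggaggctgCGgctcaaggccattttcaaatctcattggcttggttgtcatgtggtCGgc
Hoxa9: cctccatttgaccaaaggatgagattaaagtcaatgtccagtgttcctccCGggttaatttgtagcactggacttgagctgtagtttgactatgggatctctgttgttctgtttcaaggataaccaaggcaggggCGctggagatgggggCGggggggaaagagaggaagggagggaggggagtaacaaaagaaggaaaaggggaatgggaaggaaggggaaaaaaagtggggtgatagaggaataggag
They lie at chr11:96281655-96281904, plus strand (Hoxb8), chr11:96318017-96318266, plus strand (Hoxb4), chr2:74691641-74691890, plus strand (Hoxd10) and chr6:52227371-52227620, minus strand (Hoxa9), and none overlaps an annotated UTR. The Hoxd10 stretch holds 20 CG pairs, Hoxb4 14, Hoxb8 12 and Hoxa9 3. The median over the 24 Hox stretches was 12.5 and over 32851 promoters of the same length 6. The motif TGATNNAT, bound by Hox proteins together with Pbx, was searched on both strands and stands once in Hoxb8 and in none of the other 3 stretches shown. It was present in 4 of the 24 Hox stretches and in 7.68% of all promoters. The letters TTTATNG, which contain the core read by posterior Hox and Cdx proteins, matched 3 times in Hoxb8 and are present in 2 of 24 Hox stretches and 9.81% of all promoters. The retinoic acid receptor half-site AGGTCA matched once each in Hoxb4 and Hoxd10, in 6 of 24 Hox stretches and in 14.0% of all promoters. A match describes letters only.

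In female WT myoblasts, Hox expression was concentrated in a few central and posterior genes of Hoxa and Hoxc. Hoxc6, a gene of the brachial region, was highest at 18.5 FPKM, followed by Hoxa9, known from blood stem cells and leukaemia, at 18.2, and Hoxa10, which patterns the upper limb segment and the uterus, at 16.3. Hoxc10, a lumbar and hindlimb gene, was 13.7 FPKM and Hoxc11, a neighbour of similar domain, 7.81. The deposited intervals of the leading 4 overlapped, so their order is not resolved. These levels lie near the median of all genes kept, 12.1 FPKM. Hoxa held 43.1% and Hoxc 40.5% of the summed Hox FPKM, Hoxd 11.3% and Hoxb 5.10%. Within Hoxb, only Hoxb2 (1.93), Hoxb3 (3.003) and Hoxb4 (1.09 FPKM) reached 1 FPKM, while Hoxb5 to Hoxb9 each stayed at 0.139 or less. Within Hoxd the signal lay in Hoxd4 (4.05), Hoxd8 (6.63) and Hoxd9 (3.26), and Hoxd10 to Hoxd13, genes of the limb ends and the tail, were at 0.122 FPKM or less. Hoxb1 and Hoxb13 were listed at 0 in all 6 columns of the 3 tables.

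**Figure D1:**
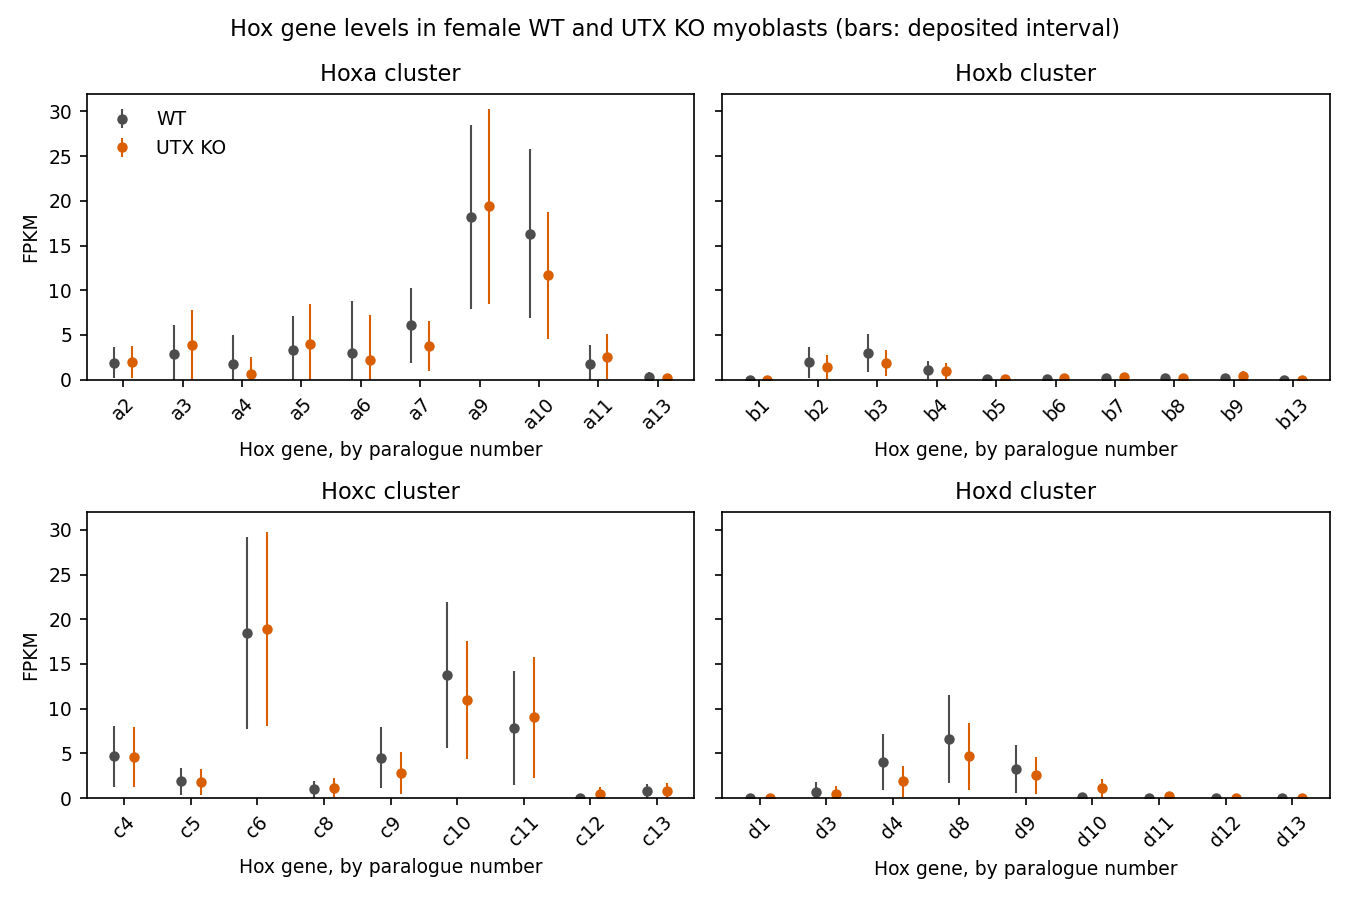
FPKM of Hox genes in female WT and UTX KO myoblasts, by cluster and paralogue number, with the deposited interval as the bar. The highest points are Hoxa9, Hoxa10, Hoxc6 and Hoxc10 in both columns, and the intervals of WT and KO overlap for each gene shown.

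The male and Ctrl-KI controls showed a similar outline, although their tables were estimated separately and their levels were not tested against the female ones. The locus holding Hoxa9 and Hoxa10 reached 22.2 FPKM in the male control and 18.4 in the KI control. Hoxa7 was 24.3 and 24.2, higher than the 6.06 FPKM of female WT, but it is merged there with the neighbouring noncoding transcript Mira. Listed apart in the female table, Mira was 16.2 FPKM. Hoxc10 reached 7.93 and 7.44 FPKM in the same controls, and Hoxd8 8.92 and 6.88. The Hoxb5 to Hoxb9 genes were low in the male control, at 0.375 FPKM or less, while in the KI control Hoxb8 was 3.66 and Hoxb7 2.25 FPKM. Hoxb9 (0.732) and both Hoxb5 loci (0.483 and 0.177 FPKM) stayed under 1 FPKM there too.

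In female KO myoblasts no Hox gene that reached 1 FPKM was 2-fold away from WT on the log2(FPKM + 1) scale, and none of the 39 pairs of intervals was apart. Of the 23 genes counted, 0 passed 2-fold upward and 0 downward. Over all 12344 genes kept, 4.49% passed upward and 4.40% downward, and intervals were apart upward for 0.664% and downward for 0.235%. Over every female locus with status OK, the 2 interval shares were 0.359% and 0.125%. The median log2 ratio of the 23 was -0.12 and that of all genes -0.08. By cluster, the median was 0.03 for Hoxa (9 genes), -0.29 for Hoxb (3), -0.02 for Hoxc (7) and -0.35 for Hoxd (4). By paralogue number, it was -0.13 for numbers 1 to 3 (4 genes), -0.12 for numbers 4 to 8 (11) and -0.09 for numbers 9 to 13 (8).

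Single female genes spanned -0.80 to 0.89 on the log2 scale. Hoxd10, a gene of the lumbar region and the limb, stood at the top with 0.122 and 1.08 FPKM, though the KO interval reached from 0.00229 to 2.16 and so covers the WT value. Hoxd4 stood at the bottom with 4.05 and 1.89 FPKM, log2 ratio -0.80. Hoxa4, of the neck region, was 1.77 and 0.677 FPKM (-0.73). Hoxd10 was counted only through the KO column and Hoxa4 only through the WT column, which fixes the direction of their ratios. The pseudocount of 1 FPKM shrinks the ratio of such low genes, and without it the FPKM of Hoxd4 was 2.14-fold lower, of Hoxa4 2.62-fold lower and of Hoxd10 8.86-fold higher. Among the higher expressed genes, Hoxa9 was 18.2 and 19.4 FPKM, Hoxa10 16.3 and 11.7, and Hoxa7 6.06 and 3.75. Hoxa11, which patterns the middle limb segment, was 1.79 and 2.58 FPKM. The lower numbered Hoxa genes were 1.91 and 1.98 (Hoxa2), 2.86 and 3.84 (Hoxa3), 3.31 and 3.95 (Hoxa5) and 2.93 and 2.15 FPKM (Hoxa6). These values show no common direction along Hoxa.

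Hoxc genes were within 2-fold in female KO cells. Hoxc6 was 18.5 and 18.9 FPKM, Hoxc4 4.66 and 4.58, and Hoxc5 1.87 and 1.81. Hoxc9, which defines thoracic motor neurons, was 4.52 and 2.84 FPKM, while Hoxc8 next to it was 0.973 and 1.18. Hoxc10 was 13.7 and 10.998 FPKM and Hoxc11 7.81 and 9.02. In Hoxb, all 3 genes counted were lower in KO cells, as were 7001 of all 12344 genes, and Hoxb4 was counted only through the WT column. Hoxb2 was 1.93 and 1.40 FPKM, Hoxb3 3.003 and 1.84, and Hoxb4, known for expanding blood stem cells, 1.09 and 0.918. Hoxd8 was 6.63 and 4.66 FPKM and Hoxd9 3.26 and 2.53. The other 16 female genes stayed under 1 FPKM in both columns.

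Male KO myoblasts showed higher levels of Hoxb5 to Hoxb9 and of posterior Hoxc genes. Of 23 Hox loci, 6 passed 2-fold upward and 0 downward, against 9.90% and 6.47% of all 11440 genes kept. The median log2 ratio was 0.42 for the Hox loci and -0.02 for all genes. Intervals were apart for 0 of the 23, against 0.603% upward and 0.262% downward over all genes kept (0.302% and 0.131% over every locus with status OK), and most Hox intervals in this table reach 0. The male differences thus rest on 1 library per group with wide error. The 4 low Hoxb loci of male WT could be counted only through the KO column, which fixes the direction of their ratio. Connective tissue and endothelial markers were also higher in the male KO column, with sums of 31.2 and 112 FPKM and of 1.35 and 70.2 FPKM, and their part in the Hox values was not tested. In bulk samples like these, fewer cells of a type and less RNA per cell cannot be told apart.

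Hoxb9, a thoracic gene, stood at 0.0896 FPKM in WT males and 3.40 after KO, with intervals of 0 to 0.216 and 0 to 7.23 and a log2 ratio of 2.02. Hoxb8 was 0.277 and 2.23 FPKM (log2 ratio 1.34), Hoxb7 0.375 and 2.60 (1.39), and the merged Hoxb5 and Hoxb6 locus 0.205 and 2.005 (1.32). The lower numbered neighbours did not share this. Hoxb4 was 3.73 and 2.46 FPKM (-0.45), Hoxb3 4.81 and 3.01 (-0.54), and Hoxb2 2.73 and 2.54 (-0.08, or 0.05 with TPM over loci with a symbol). The ratio of the sum of Hoxb7, Hoxb8 and Hoxb9 to the sum of Hoxb2 and Hoxb4 does not depend on how the columns are scaled. For males it was 0.115 (WT) and 1.65 (KO). The size of the log2 ratio depended on the pseudocount and scaling, with Hoxb8 between 0.45 and 2.63.

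In Hoxc, 7 of 8 male loci were higher in KO cells. Hoxc13, known from hair and nails, was 2.73 and 7.16 FPKM, log2 ratio 1.13. Hoxc11 was 5.28 and 13.0 FPKM (1.16), and Hoxc12 1.14 and 2.71 (0.79). Hoxc10 was 7.93 and 13.9 FPKM (0.74) and Hoxc9 3.58 and 5.13 (0.42). Hoxc8 was nearly equal at 1.26 and 1.22 FPKM. The merged Hoxc4 and Hoxc6 locus was 5.36 and 8.02 FPKM and the locus of Hoxc5 and Mir615 0.366 and 1.17 (0.67). The latter has the largest ratio of raw FPKM in the cluster, 3.20-fold, but was counted only through the KO column, which fixes its direction. Hoxc8 had a smaller ratio than Hoxc9 and than the Hoxc4 and Hoxc6 locus, so the size of the difference did not follow the order of the genes. When FPKM was rescaled to TPM over all loci, Hoxc9 and the Hoxc4 and Hoxc6 locus turned to -0.18 and -0.16, a scaling in which unnamed loci weigh 72.8% of the male WT total and 86.1% of the KO total. It moves the median of all genes to -0.70. Hoxc made up 23.0% of all Hox FPKM in male WT and 36.1% in KO, a share that scaling does not change.

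Male Hoxa and Hoxd loci were higher in part and lower in part. The locus holding Hoxa9 and Hoxa10 was 22.2 and 25.5 FPKM, and Hoxa7 24.3 and 16.6. Hoxa4 was 2.26 and 1.10 FPKM, Hoxa11 7.08 and 10.7, and Hoxa13, a gene of hand and foot, 1.82 and 0.945. Hoxd8 was 8.92 and 5.34 FPKM and Hoxd9 2.14 and 2.36. None of these 7 loci passed 2-fold on the log2(FPKM + 1) scale. With TPM over all loci, Hoxa11, Hoxd9 and the locus of Hoxa9 and Hoxa10 turned negative (-0.16, -0.32 and -0.54). By paralogue number, 9 of 10 posterior loci were higher in KO cells (median 0.63), 5 of 10 central ones (0.24) and 0 of 2 anterior ones (-0.31), against 5539 of all 11440 genes. Hoxb9 among the posterior loci, and 3 Hoxb loci and the locus of Hoxc5 and Mir615 among the central ones, were counted only through the KO column. Hoxa13 was counted only through the WT column.

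The KO effect common to both sexes was tested with limma on the female and male log2 ratios, which takes the difference between the sexes as the error. Of 24 Hox genes listed apart in both tables, 11 reached 1 FPKM in 1 column of each table and were tested. Of these 11, 0 were called higher and 0 lower at a Benjamini-Hochberg adjusted p of 0.05 over 10525 genes. Among all genes tested, 0.00950% were called higher and 0.00% lower. At an unadjusted p of 0.05, 1 of the 11 passed, Hoxa4, with a mean log2 ratio of -0.68 ± 0.25 (moderated SE of limma, adjusted p = 0.224). Over all 10525 genes, 1016 passed this unadjusted threshold upward and 1077 downward. Hoxa4 was lower in both sexes, -0.73 in females, where it was counted only through the WT column, and -0.63 in males. Hoxb3 (-0.49 and -0.54) and Hoxd8 (-0.43 and -0.64) were also lower in both, with adjusted p = 0.328 and 0.305 in limma. Hoxa11 was higher in both (0.36 and 0.53, adjusted p = 0.394 in limma). In all, 7 of the 11 Hox genes had the same sign in both sexes, 63.6%, and 66.5% of all genes did. Hoxb7 to Hoxb9 did not enter this fit, since they stayed under 1 FPKM in both female columns, and Hoxb5 and Hoxb6 are merged in males. Hoxb9 enters with TPM over all loci, with a mean log2 ratio of 0.86 ± 0.26 (SE of limma, adjusted p = 0.0679), and with TPM over loci with a symbol (adjusted p = 0.177 in limma). In both scalings Hoxb9 passes the filter only through the KO column of each sex. That fixes the direction of both ratios, so these p-values cannot show a shared effect. Without a filter its adjusted p in limma was 0.711. In the female table Hoxb9 was 0.135 and 0.447 FPKM, Hoxb8 0.139 and 0.205, and Hoxb7 0.131 and 0.247, with overlapping intervals.

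In KI myoblasts the Hoxb cluster stood lower than in Ctrl-KI cells and Hoxc higher. All 5 Hoxb loci counted were lower with their intervals apart, 4 by 2-fold or more on the same scale. Hoxb4, Hoxb7 and Hoxb8 were counted only through the Ctrl-KI column, and Hoxc12 only through the KI column. That fixes the direction of their ratios. All 7 Hoxc loci were higher, 4 with intervals apart, but 0 reached 2-fold on the log2(FPKM + 1) scale (Hoxc13 was 2.11-fold and Hoxc9 2.02-fold higher in raw FPKM). In the whole table of 11084 genes 0.893% passed 2-fold downward and 3.86% upward, and intervals were apart downward for 3.73% and upward for 8.27%. The median log2 ratio of the 22 Hox loci was -0.07 and that of all genes -0.04, with Hoxb and Hoxc on opposite sides. It was -1.35 for Hoxb and 0.72 for Hoxc, against -0.13 for Hoxa (7 loci) and -0.23 for Hoxd (3). Each group is a pool of 2 libraries in this table, and the spread between them cannot be read. Connective tissue markers summed to 20.97 FPKM in Ctrl-KI and 472 in KI, a difference whose part in the Hox values was not tested.

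Hoxb8, which acts in spinal cord and myeloid cells, was 3.66 FPKM in Ctrl-KI and 0.602 in KI cells, with intervals of 2.77 to 4.54 and 0.372 to 0.831. That is a 6.08-fold lower FPKM, or a log2 ratio of -1.54 with the pseudocount. Hoxb7 was 2.25 and 0.386 FPKM, 5.83-fold lower, and Hoxb4 3.46 and 0.753 FPKM, 4.60-fold lower. The merged Hoxb3 and Hoxb6 locus was 6.16 and 1.54 FPKM, 3.99-fold lower. Hoxb2, a hindbrain gene at the anterior end, differed least, at 2.95 and 1.29 FPKM. Under 1 FPKM, Hoxb9 was 0.732 and 0.268 FPKM with intervals apart, and the 4 other loci named Hoxb3 or Hoxb5 were lower in KI cells as well. The summed Hoxb FPKM was 20.2 in Ctrl-KI and 5.03 in KI cells, 16.0% and 4.06% of all Hox FPKM. All 5 kept this direction under the 3 other scalings tried.

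In the Hoxc cluster of the KI table, Hoxc13 was 2.30 and 4.85 FPKM, with intervals of 1.79 to 2.82 and 3.85 to 5.85. Hoxc10 was 7.44 and 13.3 FPKM, Hoxc9 3.40 and 6.86, and Hoxc8 1.77 and 2.82, each with intervals apart. The intervals overlapped for Hoxc11 at 4.76 and 8.51 FPKM, for Hoxc12 at 0.843 and 1.22, and for the locus of Hoxc4, Hoxc5 and Hoxc6 at 9.27 and 10.03. The difference was therefore smallest at the anterior end of the cluster. With TPM over all loci, which moved the median of all genes to -0.77, Hoxc8, Hoxc12 and the Hoxc4 to Hoxc6 locus turned negative (-0.10, -0.13 and -0.63). Hoxc13 and Hoxc9 stayed positive at 0.17 and 0.14. The share of Hoxc in the summed Hox FPKM was 23.6% in Ctrl-KI and 38.4% in KI cells.

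Hoxa and Hoxd were close to equal in the KI comparison. The locus of Hoxa9 and Hoxa10 was 18.4 and 22.0 FPKM, and Hoxa7 24.2 and 19.1. Hoxa4 was 2.13 and 1.85 FPKM and Hoxa11 4.17 and 4.39. Hoxa13 was 1.60 and 0.977 FPKM. Hoxd8 was 6.88 and 5.73 FPKM, Hoxd9 2.73 and 2.16, and the locus of Hoxd3, Hoxd4 and Mir10b 1.30 and 1.50. All of these pairs had overlapping intervals, and Hoxa and Hoxd contributed 0 of the 2-fold loci.

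Hoxd10 was near 0 in all 3 controls and higher in each mutant column, while the other genes from Hoxd11 to Hoxd13 had no common direction. Hoxd10 was 0.122 and 1.08 FPKM in the female table and 0.0855 and 0.672 in the male one. The merged Hoxd10 and Hoxd11 locus of the KI table was 0.0146 and 0.537 FPKM. The KI pair had intervals apart (0 to 0.0482 and 0.327 to 0.748), the female and male pairs did not. Hoxd13, which patterns the digits, was 0.00286 and 0.0908 FPKM in the KI table with intervals apart, 0.00539 and 0.0266 in the male table and listed at 0 in both female ones. Hoxd11 was 0.0624 FPKM in male WT and listed at 0 in male KO cells, and Hoxd12 was listed at 0 in the male and KI columns. Over all 33 KI loci, those under 1 FPKM included, intervals were apart upward for 6 and downward for 6, against 7.16% and 2.31% of 22762 loci with a symbol. All of these posterior Hoxd levels are low, and a sequencing depth that is not known limits what they can show.

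**Figure D2:**
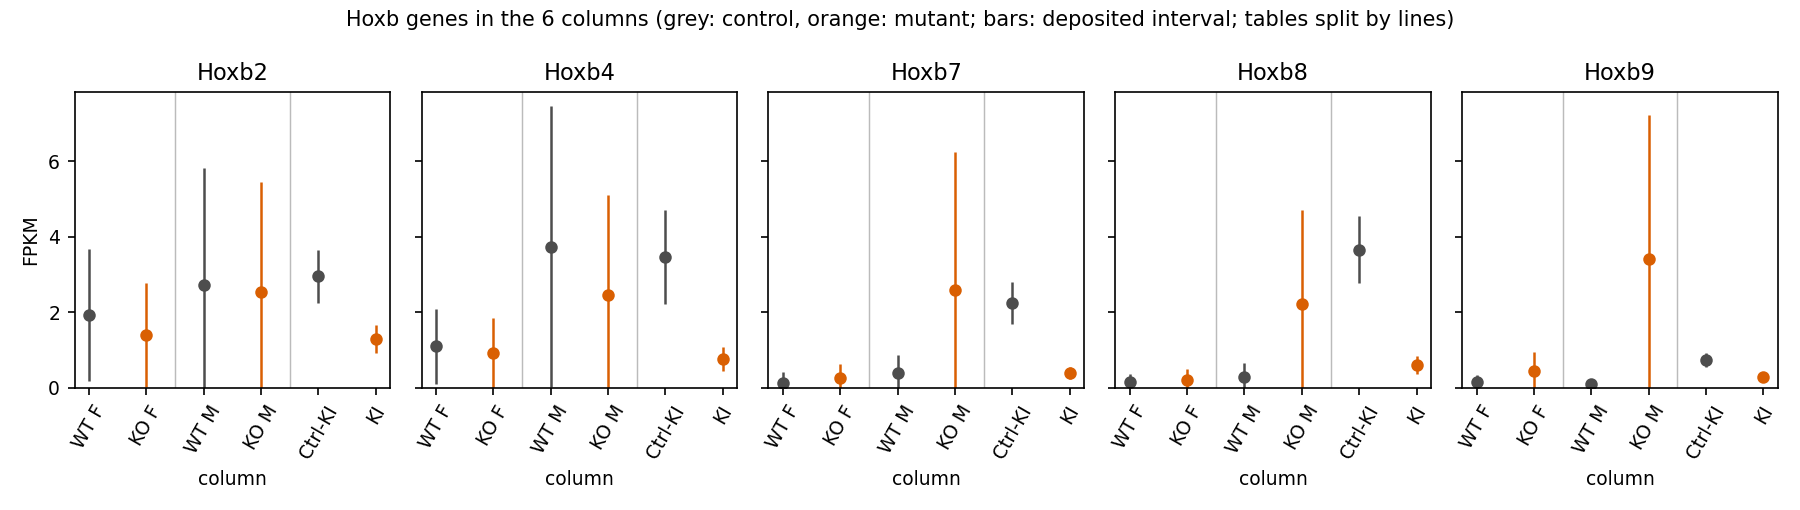
FPKM of Hoxb2, Hoxb4, Hoxb7, Hoxb8 and Hoxb9 in the 6 columns, with the deposited interval as the bar. F and M stand for female and male. Hoxb7 and Hoxb8 lie above 2 FPKM in the male KO and Ctrl-KI columns and at 0.602 FPKM or less in the other columns.

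Set side by side over the 6 columns, Hoxb7 and Hoxb8 were above 2 FPKM in 1 mutant and 1 control column, while Hoxb9 passed 1 FPKM in male KO cells alone. The sum of the 3 genes was 0.406 FPKM in female WT, 0.899 in female KO, 0.741 in male WT, 8.23 in male KO, 6.64 in Ctrl-KI and 1.26 in KI cells. The male KO and Ctrl-KI sums stand above the other 4. Relative to Hoxb2 and Hoxb4, which removes differences in scaling, it was 0.134, 0.388, 0.115, 1.65, 1.04 and 0.614 in the same order. The female and male KO comparisons share no library with each other or with the KI comparison. The 6 columns come from separately estimated tables, and their levels were not tested. This grouping of genes was chosen after the values were seen.

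**Figure D3:**
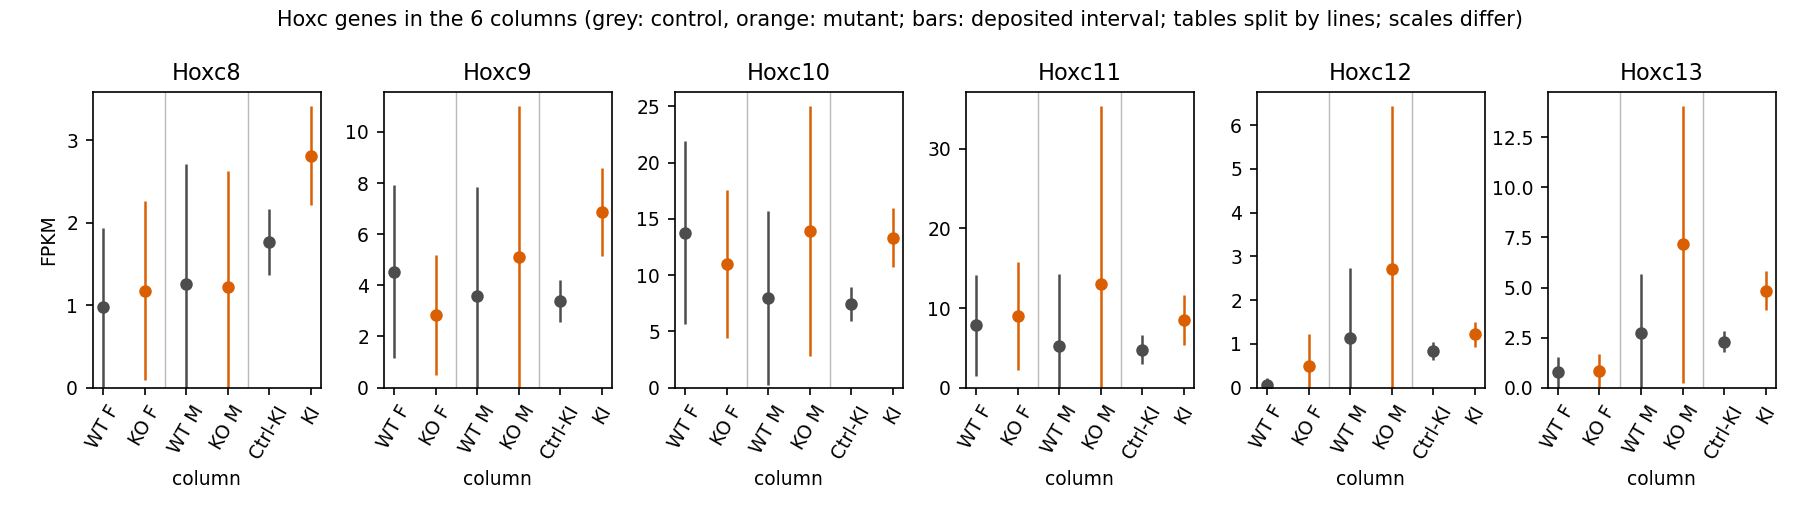
FPKM of Hoxc8 to Hoxc13 in the 6 columns, with the deposited interval as the bar and a scale of its own for each gene. In the male and KI tables Hoxc10 and Hoxc13 are higher in the mutant column, at 13.9 and 7.16 FPKM in male KO and 13.3 and 4.85 FPKM in KI cells, while female Hoxc10 is 13.7 and 10.998 FPKM and female Hoxc13 0.767 and 0.829 FPKM.

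The posterior Hoxc genes were divided differently. The sum of Hoxc10 to Hoxc13 over that of Hoxc8 and Hoxc9 was 4.07 and 5.32 for females, 3.53 and 5.80 for males, and 2.97 and 2.89 for the KI pair. It was therefore higher in the KO column of both sexes and about equal in the KI table. In females the Hoxc8 and Hoxc9 sum was 5.497 FPKM in WT and 4.015 in KO, so the ratio rose without a higher posterior sum. This grouping was also chosen after the values were seen, and the ratio has no error and was not tested. In absolute level, the Hoxc10 to Hoxc13 sum was 22.4 and 21.4 FPKM for females, 17.1 and 36.8 for males, and 15.3 and 27.9 for the KI pair.

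Markers of other cells also differed between the control and mutant columns. The columns were checked for muscle lineage genes first, and all 6 (Pax7, Myf5, Myod1, Myog, Des and Chrna1) reached 1 FPKM in each table. Their summed FPKM was 2486 and 1368 for females, 6459 and 2696 for males, and 5975 and 4839 for the KI pair. Of the 6, 0 passed 2-fold upward and 2 downward in females, 1 and 2 in males, and 0 and 0 for the KI pair. Downward, 4.40%, 6.47% and 0.893% of all genes passed 2-fold. Fibro-adipogenic genes, which mark the connective tissue cells of muscle, were higher in sum in each mutant column. This sum was 329 and 772 FPKM for females (4 of 9 genes past 2-fold), 31.2 and 112 for males (5 of 7), and 20.97 and 472 for the KI pair (7 of 9). Of all genes, 4.49%, 9.90% and 3.86% passed 2-fold upward. Tcf7l2 was lower in female KO cells, at 3.74 and 3.25 FPKM, and in KI cells, at 10.03 and 9.17. Lum was listed at 0 in both male columns and in Ctrl-KI. The collagen gene Col1a1 was 0.515 FPKM in Ctrl-KI and 158 in KI cells, and was counted only through the KI column. Endothelial genes summed to 18.1 and 31.2 FPKM for females, 1.35 and 70.2 for males (4 of 4 past 2-fold, with Tie1 at 0 in WT), and 2.28 and 9.35 for the KI pair (1 of 1, with Emcn and Tie1 at 0 in Ctrl-KI). The male WT sum covers all 8 endothelial genes, so most of the 4 were counted only through the KO column, which fixes their direction. Pericyte and smooth muscle genes summed to 13.5 and 41.3 FPKM for the KI pair, 32.1 and 38.1 in females, and 17.9 and 10.3 in males. For the KI pair 2 of 4 passed 2-fold upward and 0 downward, with intervals apart upward for 3 and downward for 1. In females 1 of 5 passed upward and 1 downward, and in males 1 of 2 upward and 1 downward.

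Immune genes summed to 8.54 and 15.4 FPKM for females, 392 and 494 for males, and 357 and 386 for the KI pair, with Ptprc at 0 in female WT and Emr1 at 0 in female and male WT cells. Schwann and glial genes summed to 7.02 and 8.04, 1.87 and 1.95, and 2.50 and 4.68 FPKM, with Sox10 at 0 in Ctrl-KI cells. The part of any of these cells in the Hox differences was not tested.

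**Figure D4:**
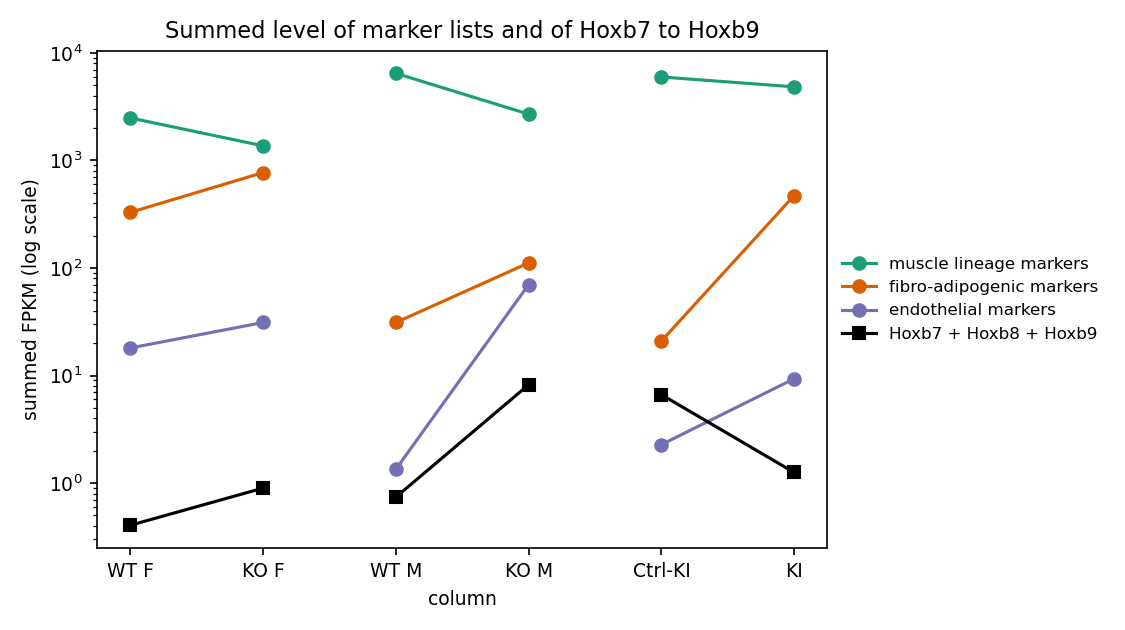
Summed FPKM, on a log scale, of muscle lineage, fibro-adipogenic and endothelial markers and of Hoxb7, Hoxb8 and Hoxb9 in the 6 columns, with control and mutant of a table joined by a line. The fibro-adipogenic sum is higher in each mutant column. Against the control of the same table, the Hoxb sum is higher in female KO (0.899) and male KO (8.23) and lower in KI cells (1.26).

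The partners and regulators of Hox proteins were mostly within 2-fold. Of the 9 TALE homeodomain genes, whose Pbx, Meis and Pknox products bind DNA together with Hox proteins, 0 were 2-fold changed in female KO and 0 in KI cells, and 1 was 2-fold higher in male KO cells. That gene was Meis2, at 2.53 and 7.61 FPKM in males. Meis3 was the highest of the list by ratio in the KI table (4.09 and 5.16 FPKM). Pknox2 was the lowest in females (1.50 and 0.718) and in the KI table (4.31 and 2.26 FPKM, intervals apart), and Pbx3 in males (10.8 and 5.11). The list's median log2 ratio was 0.18 for females, 0.09 for males and -0.15 for the KI pair.

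Among 19 subunits of the Polycomb complex PRC1, which represses Hox clusters, 1 was 2-fold changed in any table, Phc2, at 44.4 and 98.9 FPKM in male WT and KO cells. The list medians were 0.02, 0.03 and 0.08. The upward and downward shares of all genes were 4.49% and 4.40%, 9.90% and 6.47%, and 3.86% and 0.893% in the same order of tables. The ends of the list were Rybp (14.7 and 23.3 FPKM) and Cbx7 (32.3 and 20.6) in females, Phc3 (13.97 and 8.77) at the low end in males, and Cbx2 (2.11 and 3.06) and Cbx7 (2.55 and 1.77) in the KI table. Of 11 genes of the MLL1/2 and menin complexes, which keep Hox genes active, 0 were 2-fold changed in any of the 3 tables, with medians of -0.05, -0.09 and -0.05. Mll1 was 10.9 and 15.3 FPKM and Dpy30 22.98 and 15.5 in females. Dpy30 was 22.0 and 26.7 and Hcfc2 20.2 and 10.4 in males, and Psip1 was 24.0 and 26.6 and Hcfc1 47.6 and 33.9 in the KI table.

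Genes of the retinoic acid pathway, an inducer of Hox clusters in the embryo, were compared in the same way. In females 2 of 12 passed 2-fold upward and 1 downward, in males 4 of 12 higher and 2 lower, and for the KI pair 2 of 13 higher and 0 lower. The shares of all genes past 2-fold upward and downward were 4.49% and 4.40%, 9.90% and 6.47%, and 3.86% and 0.893% in the same order. Cyp26b1, which degrades retinoic acid, was 4.60 and 13.8 FPKM in females and 1.50 and 7.42 in males. Crabp2, its intracellular carrier, was 1.46 and 5.41 FPKM in females and 3.37 and 9.58 in males. The receptor gene Rxrg was 3.40 and 0.870 FPKM in females and 8.18 and 2.01 in males. These are the 3 members 2-fold changed the same way in both sexes. In the KI table the ends of the list were Aldh1a3, which makes retinoic acid, at 0.0112 and 3.13 FPKM, and Rxrg at 4.30 and 2.70. The Cdx genes Cdx2 and Cdx4 were listed at 0 in all 6 columns.

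Other transcription factors that differ by body region were compared beside the Hox genes. Of 29 such factors 15 reached 1 FPKM in each table. In females 4 of 15 passed 2-fold upward and 0 downward, in males 4 higher and 2 lower, and for the KI pair 2 higher and 2 lower, beside 4.49% and 4.40%, 9.90% and 6.47%, and 3.86% and 0.893% of all genes. Prrx1, a gene of limb connective tissue, was the member 2-fold higher in both sexes, at 36.9 and 83.6 FPKM in females and 7.80 and 25.3 in males. By ratio Tbx18 was the highest in females (3.31 and 9.99 FPKM). Tbx15, of trunk and limb muscle, was the lowest in males at 135 and 37.4 FPKM. In the KI table Shox2, a limb gene, was 0.309 and 2.69 FPKM, and Lbx1, which marks muscle precursors that migrate into the limbs, 44.4 and 18.0, both with intervals apart.

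Genes at the borders of the clusters were compared with the Hox genes inside. Skap1, beyond the anterior end of Hoxb, has 2 KI loci, at 1.004 and 0.945 FPKM and at 2.42 and 1.98 FPKM. In males its larger locus was 4.36 and 11.0 FPKM, log2 ratio 1.16, and in females it was 0.110 and 0.0963. Skap2, beside Hoxa, was 9.02 and 9.74 FPKM in females, 12.8 and 17.8 for males and 13.4 and 14.1 for the KI pair. Mtx2, beside Hoxd, was 43.7 and 31.8, 54.8 and 45.2, and 45.9 and 44.2 FPKM in the same order. Neighbours outside that list, added after the values were seen, were lower in part. Calcoco1, beside Hoxc, was 154.6 and 115.98 FPKM for females, 95.8 and 61.7 for males, and 76.2 and 63.2 for the KI pair. Smug1, also beside Hoxc, was 43.2 and 26.5 FPKM for females and 13.4 and 13.6 for the KI pair. Lnp, beside Hoxd, was 7.83 and 4.59, 8.23 and 5.12, and 8.98 and 8.07 FPKM for the 3 pairs. Hoxa11as, the antisense transcript of Hoxa11, was 3.81 and 3.07 FPKM for females, 5.40 and 10.7 for males and 2.999 and 2.73 for the KI pair, values that cannot be separated from Hoxa11 where counting used no strand. The microRNA genes Mir10a, Mir196a-1 and Mir196a-2 were listed at 0 in all 6 columns.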

How the data were processed

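RNA-seq values of 8 libraries in 6 groups were used. The authors deposited 3 tables whose headers have the Cuffdiff layout, and each column gives FPKM with its lower and upper bound (per the file headers). How wide the interval is meant to be, and how libraries were scaled to each other, is not stated. The submitters' processing notes name mm9, Bowtie2, TopHat2 and Cufflinks without their roles, with no annotation named. The KI columns pool 2 libraries.

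Loci with a gene symbol, status OK in both columns and at least 1 FPKM in 1 column were kept (12344 female, 11440 male and 11084 KI). For a locus that reached 1 FPKM in 1 column alone, this filter fixes the direction of the ratio, in the gene lists as well. The log2 ratio was log2((FPKM + 1)/(FPKM + 1)), mutant over control, which understates the change of low genes. A locus was called at 2-fold. The ratios of both sexes were fitted with limma 3.58.1 in R 4.3.3, letting the variance depend on the mean level, with 1 residual degree of freedom, tested on simulated data. Locus starts counted from 0 were raised by 1. Merged loci, bundles sharing coordinates, and overlapping or antisense genes are uncertain, since strand use is not stated.

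The members and lists were chosen with earlier results of these data known. Each Hox locus at 1 FPKM or more is named, of each list the highest and lowest member by ratio and those 2-fold changed alike in both sexes, and Kdm6a and Uty as checks; some members that this rule names are not reported here. Whether libraries stand for separate animals is not stated. Alternatives were other pseudocounts, filters, scalings, non-overlapping intervals and every status.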

Additional observations from a re-analysis of the deposited data

How the results depend on the processing

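Over all alternatives, 107 counts and medians of Hox loci were recomputed: 81 stayed within 1.5 times (counts) or 0.1 (median log2 ratio) of the value given above, and 26 moved. The 10 single loci at least 2-fold changed kept their direction under all 5 pseudocount and scaling alternatives, though a pseudocount cannot turn a sign. Among them, 4 male Hoxb loci were counted only through the KO column, and Hoxb4, Hoxb7 and Hoxb8 of the KI table only through the Ctrl-KI column. Of the 10, 0 stayed past 2-fold under all alternatives.

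In females the counts of loci at least 2-fold higher and lower were 0 and 0. With a pseudocount of 0.1 FPKM they were 1 and 2, and with TPM over all loci or over loci with a symbol 2 were higher. The median of -0.12 became -0.22 with a pseudocount of 0.1 FPKM, 0.00 without a filter, -0.30 with a filter of 5 FPKM, and 0.07 (0.0650) with either TPM scaling. In males the 6 loci 2-fold higher became 0 with a pseudocount of 5 FPKM, 2 with a filter of 5 FPKM, 1 with TPM over all loci (with 2 lower) and 0 by non-overlapping intervals. The male median of 0.42 became 0.20 with a pseudocount of 5 FPKM, 0.085 without a filter, -0.48 with TPM over all loci, 0.62 with TPM over loci with a symbol and 0.31 with a filter on the mean of both columns, the alternative chosen after seeing the data. In the KI table the 4 loci 2-fold lower became 0 with a pseudocount of 5 FPKM and 1 with a filter of 5 FPKM. Loci 2-fold higher, 0 above, were 1 with a pseudocount of 0.1 FPKM, 3 with TPM over loci with a symbol and 4 by non-overlapping intervals. The KI median of -0.07 became 0.046 with a filter of 5 FPKM and -0.66 with TPM over all loci. A higher pseudocount shrinks ratios and a stricter filter leaves fewer loci by construction; the cause of the other shifts was not tested.

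The share of higher genes among all 2-fold calls was 50.5% in females, and 63.2% with median-centred ratios and 73.7% with TPM. In males it was 60.5%, and 9.12% with TPM over all loci and 71.6% over loci with a symbol. In the KI table it was 81.2%, and 10.4% with TPM over all loci. The fit over both sexes called 0 Hox loci under all alternatives, with 1 gene of any kind called as described, 3 higher and 13 lower with a filter of 5 FPKM, and 44 higher and 67 lower with TPM over all loci. Leaving out 1 sex leaves 1 value and no test. No paired analysis was possible because the KI table holds 1 pooled column per group, so the replicate numbers of its libraries cannot be used. Unknown read depth limits what loci under 1 FPKM can show.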

Other observations

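Transcripts without a gene symbol lay inside the Hox clusters of the male and KI tables and belong to no comparison above. There were 8 male and 3 KI ones. All 3 KI ones lay in Hoxc and were higher in KI cells, the largest at 0.641 FPKM in Ctrl-KI and 1.14 in KI cells (mm9 chromosome 15, 102773215 to 102788171, a span shared with Hoxc11). Their intervals, 0.336 to 0.945 and 0.637 to 1.65 for this one, overlapped. Of the 8 male ones, 7 were higher and 1 lower in KO cells. All male loci lacking a symbol, inside and outside the clusters, together held 72.8% (WT) and 86.1% (KO) of the summed signal. For the KI pair this share was 57.1% (Ctrl-KI) and 77.6% (KI). Whether the higher values are particular to the Hox clusters was not tested.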
